A study of Sus scrofa with 24 samples.

Results

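The comparison described here set liver RNA of 8 pigs of the high residual feed intake line against that of 8 pigs of the low residual feed intake line, all with free access to feed. The high group comprised the samples titled liver_RFIpl_115kg and the low group those titled liver_RFIneg_115kg, which together made up 16 of the 24 samples of the series. All animals weighed 115 kg, and each supplied 1 Cy3-labelled array. The remaining 8 samples came from the high line fed at the intake of the low line, and they entered only the estimate of the spread between pigs. The labels give the line and the feeding condition of each pig and no sex, litter, age or fasting state. Both lines were products of selection, so 16 pigs represent 2 lines, and a difference produced by selection cannot be told apart from one fixed by chance when the lines separated.

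Residual feed intake (RFI) is the part of an animal's feed consumption that its growth, body composition and maintenance needs do not account for. A high RFI pig eats more than its performance predicts and a low RFI pig eats less. The liver receives absorbed nutrients first. It turns surplus carbohydrate into fatty acids, breaks down amino acids and disposes of their nitrogen as urea, makes bile acids, clears foreign compounds, and secretes most plasma proteins as well as the growth factor IGF1. In pigs adipose tissue carries most fatty acid synthesis, and the liver a smaller part.

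Levels are log2 signal minus each array's own 75th percentile, and every difference is the mean of the high RFI pigs minus that of the low RFI pigs on this log2 scale. Between 63.3% and 71.4% of spots were well above background on the arrays of low RFI pigs and between 65.7% and 72.7% on those of high RFI pigs. The mean shares were 67.8% ± 2.77 and 70.2% ± 2.28 (SD, n = 8 each), a difference of 2.41 percentage points (exact permutation test, two-sided p = 0.078). The part of this difference in the results was not tested. Arrays correlated with each other at 0.972 to 0.991. Each of the 6 slides held both groups, and 1 slide, the third, had a mean share of 63.9%. The liver identity of the samples was evident from 10 measured hepatocyte markers. Albumin (ALB) lay between 9.35 and 9.56 in low RFI pigs and between 9.28 and 9.60 in high RFI pigs, and transthyretin (TTR) between 8.65 and 8.99 and between 8.56 and 9.11.

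Of 29608 probes above background in at least 6 of 8 pigs of either group, 45 (0.152%) passed an adjusted p of 0.05 in limma. They comprised 23 probes higher in high RFI pigs (0.0777%) and 22 lower (0.0743%). At an unadjusted p under 0.05 there were 1510 higher (5.1%) and 1332 lower (4.5%). Of the 45, 14 carried a gene symbol and stood for 10 genes, 6 higher and 4 lower. The other 31 had no symbol, and 12 of these were described as unknown on the array. The groups did not overlap on 18 of the 45 probes, against 41 of all 29608 (0.138%). Most called probes lay at levels below the percentile subtracted from their arrays, and a minority lay above it, as the plot of difference against level shows. The median SE of a difference was 0.13 and the median 95% interval ± 0.27, before any adjustment for the number of probes.

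**Figure D1:**
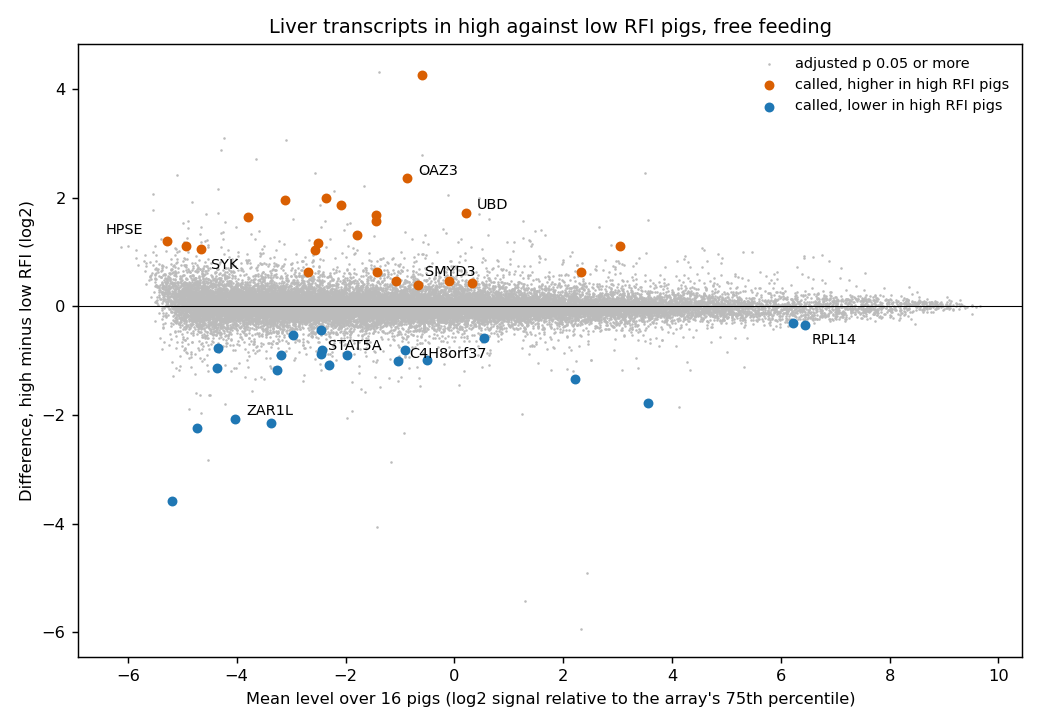
Difference between high and low RFI pigs (vertical axis, log2) against mean level over the 16 arrays (horizontal axis, log2 signal minus the 75th percentile of its array) for the 29608 probes, with the 45 called probes marked. The called probes are few, with 23 differences above 0 and 22 below, and most lie at levels below the 75th percentile of their arrays.

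The array measures each transcript with probes of 60 bases, and the sequences below are those behind called genes, shown because a call rests on the stretch of transcript that its probe reads. They are as deposited with the scanner output, and no genome position is given. Each gene with several probes on different stretches offers a comparison within the gene. Capitals mark the longest stretch that the probe shares with another probe of the same gene, and a probe in lower case throughout shares no long stretch with a second one shown here. The pairs for ZAR1L and RPL14 share 32 and 26 bases and so read nearly the same piece of RNA. The pair for OAZ3 reads separate pieces.
UBD A_72_P441035: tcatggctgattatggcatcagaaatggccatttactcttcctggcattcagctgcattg
OAZ3 A_72_P437459: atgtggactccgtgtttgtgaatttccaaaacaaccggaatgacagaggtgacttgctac
OAZ3 A_72_P619999: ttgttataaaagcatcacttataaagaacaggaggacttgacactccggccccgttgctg
HPSE A_72_P441279: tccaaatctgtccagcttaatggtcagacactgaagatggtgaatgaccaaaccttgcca
SYK A_72_P186906: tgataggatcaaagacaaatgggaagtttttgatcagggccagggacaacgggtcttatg
SMYD3 A_72_P442498: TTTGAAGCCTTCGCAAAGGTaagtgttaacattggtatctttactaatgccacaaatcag
SMYD3 A_72_P500881: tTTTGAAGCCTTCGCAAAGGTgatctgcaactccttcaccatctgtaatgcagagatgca
ZAR1L A_72_P671850: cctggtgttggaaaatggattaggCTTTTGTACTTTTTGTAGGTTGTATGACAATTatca
ZAR1L A_72_P452533: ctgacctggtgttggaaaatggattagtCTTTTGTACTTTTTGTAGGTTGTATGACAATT
STAT5A A_72_P442276: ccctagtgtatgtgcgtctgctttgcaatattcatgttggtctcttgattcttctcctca
RPL14 A_72_P655183: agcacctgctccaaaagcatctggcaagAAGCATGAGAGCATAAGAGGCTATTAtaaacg
RPL14 A_72_P614716: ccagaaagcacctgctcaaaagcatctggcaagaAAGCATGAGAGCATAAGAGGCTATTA

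Of the 6 genes higher in high RFI pigs, OAZ3 and UBD had the largest differences on well measured probes. OAZ3 belongs to the antizymes, which bind ornithine decarboxylase and send it for degradation, and so restrain polyamine synthesis. Its level ranged from -2.85 to 0.23 in low RFI pigs, with a median of -2.32, and from -0.40 to 0.88 in high RFI pigs, with a median of 0.57. Only low RFI pig 7, at 0.23, reached the high RFI range. The difference was 2.36 ± 0.35 (SE, adjusted p = 0.00269), a 5.13-fold higher level, and the separate second probe differed by 1.32 ± 0.24 (adjusted p = 0.0158).

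UBD encodes FAT10, a ubiquitin-like modifier that interferon and tumour necrosis factor induce and that marks proteins for the proteasome. Its level ran from -1.22 to 0.39 in low RFI pigs (median -0.74) and from 0.13 to 1.65 in high RFI pigs (median 1.23). The groups overlapped narrowly. UBD was 3.31-fold higher in high RFI pigs, by 1.73 ± 0.22 (SE, adjusted p = 0.000619), and it was the named gene with the smallest p. When the 2 high RFI pigs with the highest interferon gene levels, pigs 5 and 7, were left out, the difference was 1.63 (adjusted p = 0.00606).

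HPSE, encoding heparanase, which cuts heparan sulfate chains, and SYK, a tyrosine kinase of immune receptor signalling, were called on dim probes. HPSE lay between -6.40 and -5.19 in low RFI pigs, well above background in 0 of 8, and between -5.46 and -4.04 in high RFI pigs, above background in 6 of 8. The difference was 1.20 ± 0.19 (SE, adjusted p = 0.00377). Because the low RFI level was only a bound, HPSE was at least 1.93-fold higher, with the mean of the high RFI pigs set against the lowest signal well above background on each low RFI array or the probe's own signal, whichever was higher. SYK lay between -5.87 and -4.33 in low RFI pigs, above background in 3 of 8, and between -4.72 and -3.74 in high RFI pigs, above background in all 8, with a difference of 1.05 ± 0.18 (adjusted p = 0.00873). A second probe differed by 0.36 for HPSE and 0.13 for SYK. Under an alternative background correction (normexp on mean and local background signals) the differences were -0.063 for HPSE and -0.032 for SYK.

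SMYD3, a lysine methyltransferase, separated the groups completely. SMYD3 ranged from -1.22 to -0.66 in low RFI pigs (median -0.85) and from -0.57 to -0.33 in high RFI pigs (median -0.49), a difference of 0.39 ± 0.07 (SE, adjusted p = 0.0247). Its 2 other probes differed by only 0.10 and 0.11. Among them is the probe printed above, which shares 20 bases with the called one and then reads another sequence.

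Of the 4 genes lower in high RFI pigs, ZAR1L and C4H8orf37 had the largest differences. ZAR1L, related to a maternal-effect gene of the oocyte, ranged from -4.64 to -2.05 in low RFI pigs (median -2.85) and from -5.45 to -4.60 in high RFI pigs (median -5.13), where 6 of 8 were above background. It fell by 2.07 on the log2 scale (SE 0.27, adjusted p = 0.000885), a 4.20-fold lower level, and on the overlapping second probe, above background in 0 of 8 high RFI pigs, it was at least 4.31-fold lower (adjusted p = 0.00178). With the alternative background correction ZAR1L fell by 0.84 (limma adjusted p = 0.225). C4H8orf37, whose human counterpart is linked to retinal dystrophy, ranged from -1.30 to -0.02 in low RFI pigs (median -0.40) and from -1.75 to -1.18 in high RFI pigs (median -1.59). It fell by 1.01 (SE 0.18, adjusted p = 0.0152), and the second probe, on a separate stretch, fell by 0.89 (adjusted p = 0.0374). The groups overlapped by a narrow margin for both genes. The probe A_72_P040846, which has no symbol but is described as a C8orf37 homolog, fell by 2.14 (adjusted p = 0.034).

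STAT5A and RPL14 changed little in size but separated the groups. STAT5A, a transcription factor that growth hormone and other cytokines activate, ranged from -2.43 to -1.89 in low RFI pigs (median -2.30) and from -2.98 to -2.47 in high RFI pigs (median -2.61). It fell by 0.44 (SE 0.08, adjusted p = 0.0221), and its other probe differed by -0.38. RPL14, a protein of the large ribosomal subunit, ranged from 6.48 to 6.75 in low RFI pigs and from 6.06 to 6.42 in high RFI pigs. It fell by 0.33 (SE 0.06, adjusted p = 0.0256), and 5 other probes differed by -0.46 to -0.25, 1 of them called. For each of these 9 genes the 8 high RFI values were either all above or all below the mean of the low RFI group. Choosing genes by a small p in this same comparison favours such a pattern, so it adds no separate support.

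**Figure D2:**
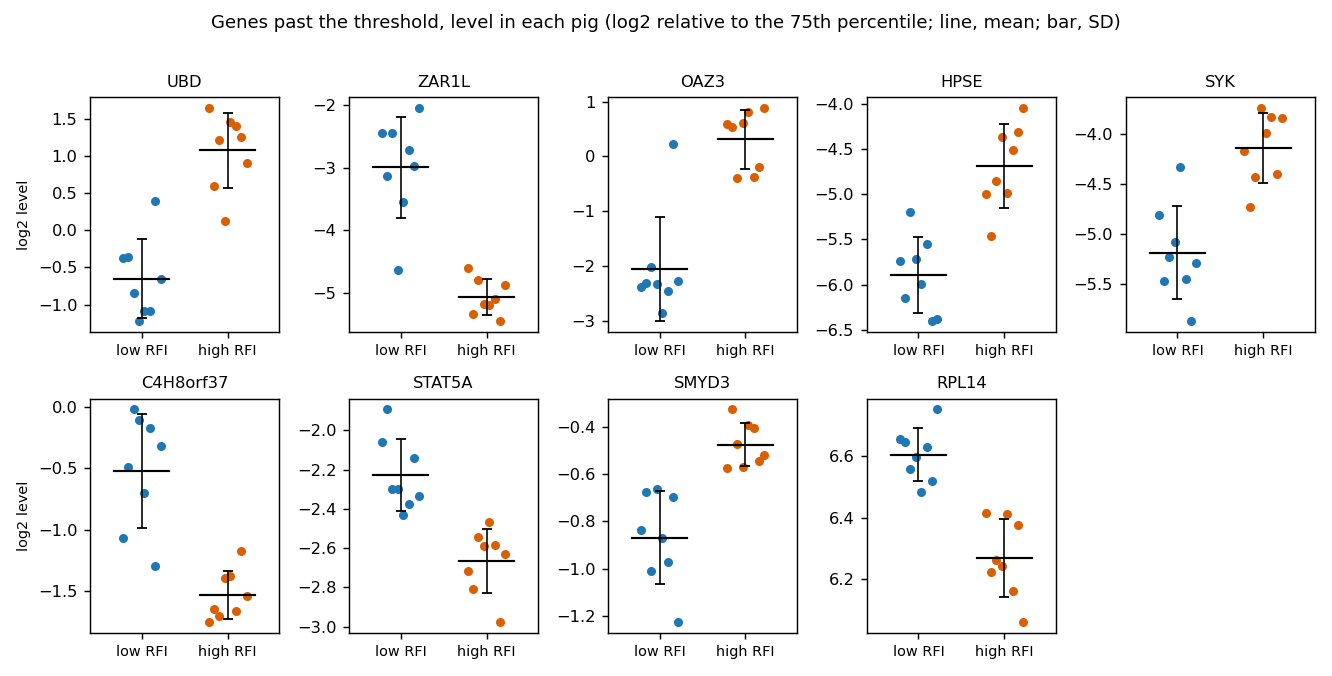
Level of 9 called genes (vertical axis, log2 signal minus the 75th percentile of its array) in each pig of the low and high RFI groups. Points are pigs in order of pig number, the line is the mean and the bar the SD (n = 8 each); STAT5A, SMYD3 and RPL14 show no overlap, and low RFI pig 7 stands out for OAZ3.

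The calls for UBD, OAZ3, ZAR1L, HPSE, SYK and C4H8orf37 stood whichever single pig was left out. STAT5A lost its call without high RFI pig 2 (adjusted p = 0.0611), and SMYD3 lost it without low RFI pig 3 or 6 or high RFI pig 2, 3, 5 or 6 (0.0501 to 0.0611). RPL14 lost its call without pig 1, 2, 6 or 8 of the low group or pig 2, 3, 6 or 8 of the high group (0.0502 to 0.064). Under the alternative background correction, UBD (1.38, adjusted p = 0.00271) and OAZ3 (1.62, adjusted p = 0.0396) were called and the other genes described above were not. With only the 16 compared arrays in the fit, STAT5A (adjusted p = 0.0739), SMYD3 (0.0805) and RPL14 (0.0643) were not called. Without the filter on dim probes SMYD3 (0.0588) and RPL14 (0.0636) were not, and with quantile scaling RPL14 (0.0905) was not. Without low RFI pigs 7 and 8 STAT5A (0.0619) and RPL14 (0.0783) lost their calls, and SMYD3 lost its call without high RFI pigs 5 and 7 (0.065) or without slide 3 (0.103). With the slide as a block, RPL14 (adjusted p = 0.0807) was not called, and with pig number as a block, STAT5A (0.0764) and RPL14 (0.0743) were not. Between the 7 compared pigs scanned on the first day 5 probes were called, and between the 9 of the second day 11. High line pigs fed at the intake of the low line and scanned that day again entered only the estimate of the spread. By its probe of smallest p, none of the genes described above was called on the first day. On the second day UBD, OAZ3 and C4H8orf37 were called and the others were not. C4H8orf37 differed by -0.50 on the first day (limma adjusted p = 0.816) and by -1.32 on the second (0.00957). All 45 probes kept their direction on both days.

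Called probes without a symbol included A_72_P205617, described only as a liver cDNA clone, which differed by more than any called gene. It ranged from -5.44 to -1.05 in low RFI pigs (median -2.29) and from -1.18 to 3.02 in high RFI pigs (median 2.15), a difference of 4.27 ± 0.71 (SE, adjusted p = 0.00648). A_72_P427894, described as unknown, went the other way, from -4.63 to -2.49 in low RFI pigs (median -3.36) to -7.66 to -4.26 in high RFI pigs (median -7.33), where only 1 of 8 was above background. It fell by 3.58 (adjusted p = 0.0111), a size that is uncertain because the lower level was mostly within background. Their sequences are given because the array names no gene for them, together with the probe for glutathione S-transferase mu 2.
A_72_P205617: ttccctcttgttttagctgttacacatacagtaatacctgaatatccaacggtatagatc
A_72_P427894: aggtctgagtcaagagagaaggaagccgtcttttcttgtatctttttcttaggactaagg
A_72_P402778: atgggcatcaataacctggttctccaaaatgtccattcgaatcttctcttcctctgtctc

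A_72_P402778 is described as glutathione S-transferase mu 2, an enzyme that joins glutathione to reactive compounds. It ranged from -3.72 to -2.78 in low RFI pigs (median -3.52) and from -1.57 to -1.13 in high RFI pigs (median -1.35), with a wide gap between the groups. The difference was 2.0 ± 0.25 (SE, adjusted p = 0.000619). Another 2 probes with this description differed by 0.73 ± 0.19 and 0.61 ± 0.16 (adjusted p = 0.138 and 0.147). The printed letters of A_72_P402778 appear to run opposite to the coding strand, which no reference used here could check, so its value is not given as that of the enzyme's mRNA. Besides A_72_P040846, described above, the next in size were A_72_P310053 (1.97, adjusted p = 0.00151) and A_72_P008606 (1.87, adjusted p = 0.00431) among the higher probes, and A_72_P062911 (-1.78, adjusted p = 0.00648) and A_72_P341528 (-1.35, adjusted p = 0.0103) among the lower ones.

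Among the 12 genes with the smallest p above 0 that did not pass adjustment were PIGR and ME1. PIGR, the receptor that carries polymeric immunoglobulins across epithelium into bile, ranged from 2.20 to 3.48 in low RFI pigs and from 3.25 to 4.22 in high RFI pigs, a difference of 0.80 ± 0.17 (SE, adjusted p = 0.062), and its second probe also differed by 0.80. PIGR passed the threshold with the slide as a block (adjusted p = 0.022). ME1, cytosolic malic enzyme, which supplies NADPH for fatty acid synthesis, ranged from -3.79 to -2.76 (median -2.90) and from -3.35 to -1.04 (median -1.79), a difference of 1.13 ± 0.28 (adjusted p = 0.123). Without high RFI pig 7 its adjusted p was 0.0252, and with any other single pig left out ME1 did not pass.

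SLC2A4, the insulin-responsive glucose transporter GLUT4, ranged from -0.25 to 1.09 in low RFI pigs and from 0.24 to 1.72 in high RFI pigs, a difference of 0.75 ± 0.20 (SE, adjusted p = 0.147). CYP3A29, a pig cytochrome P450 of drug metabolism, differed by 0.63 ± 0.17 (adjusted p = 0.152). The groups overlapped for both. TAP2, a peptide transporter of antigen presentation, differed by 0.70 ± 0.18 and SERPINA3-3, a serine protease inhibitor, by 0.36 ± 0.09, both with an adjusted p of 0.138. The second TAP2 probe differed by 0.07. The rest were CCSER2 (0.38), MTRF1 (0.55), NTN1 (0.68), DMD (0.32), MTDH (0.37) and FRK (0.68), with adjusted p of 0.0722 to 0.135.

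The corresponding 12 genes below 0 included HSD3B1, HSD17B1 and HSDL2. HSD3B1, which oxidises 3-beta-hydroxysteroids, ranged from 1.50 to 2.03 in low RFI pigs (median 1.79) and from 0.46 to 1.76 in high RFI pigs (median 1.04), a difference of -0.71 ± 0.16 (SE, adjusted p = 0.0714), and its second probe differed by -0.75. HSD17B1, which converts estrone to estradiol, ranged from 3.29 to 3.55 and from 2.73 to 3.23 with no overlap. It differed by -0.43 ± 0.10 (adjusted p = 0.0714), but its second probe by 0.11. HSDL2, a peroxisomal member of the hydroxysteroid dehydrogenase-like family, differed by -0.81 ± 0.18 (adjusted p = 0.075) and on the second probe by -0.75.

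P2RY1, a receptor for ADP, lay closest to the threshold. It ranged from -2.65 to -1.78 in low RFI pigs and from -3.46 to -2.55 in high RFI pigs, a difference of -0.77 ± 0.16 (SE, adjusted p = 0.0512), and its other probes differed by -0.68 and -0.46. The groups overlapped only slightly. P2RY1 passed the threshold with only the 16 compared arrays in the fit (limma adjusted p = 0.0363) and with the slide (0.0368) or scan day (0.0196) as a block. It did not pass under the alternative background correction or within either scan day. YIPF5, a Golgi and endoplasmic reticulum membrane protein, did not overlap, at 2.88 to 3.41 against 2.50 to 2.82, and differed by -0.36 ± 0.09 (adjusted p = 0.103) with 5 further probes at -0.43 to -0.27. APCS, serum amyloid P component, differed by -1.30 on 1 probe and by 0.48 on the brighter one, so its direction depends on the probe. The remaining genes were BLCAP (-0.44), RIIAD1 (-0.53), JAG1 (-0.51), RPGRIP1 (-1.63, above background in only 2 of 8 high RFI pigs), C14H1orf198 (-0.38) and IPO5 (-0.25), with adjusted p of 0.0659 to 0.109.

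Pathways and gene families were described over 4457 genes, each by its brightest probe, of which 6 (0.135%) passed the adjusted threshold. At an unadjusted p under 0.05 there were 426 (9.56%), 214 higher (4.8%) and 212 lower (4.76%). The counts of list members below use this looser cut, and a member named from it did not pass adjustment unless said. Over all genes the median difference was -0.01, with 47.3% above 0, and the 5th and 95th percentiles were -0.31 and 0.37. Of 70 lists with at least 5 measured genes, 53 had a median within 0.1 of 0. Over all 76 lists the highest median was that of fatty acid synthesis, and the lowest was that of pancreatic acinar markers.

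**Figure D3:**
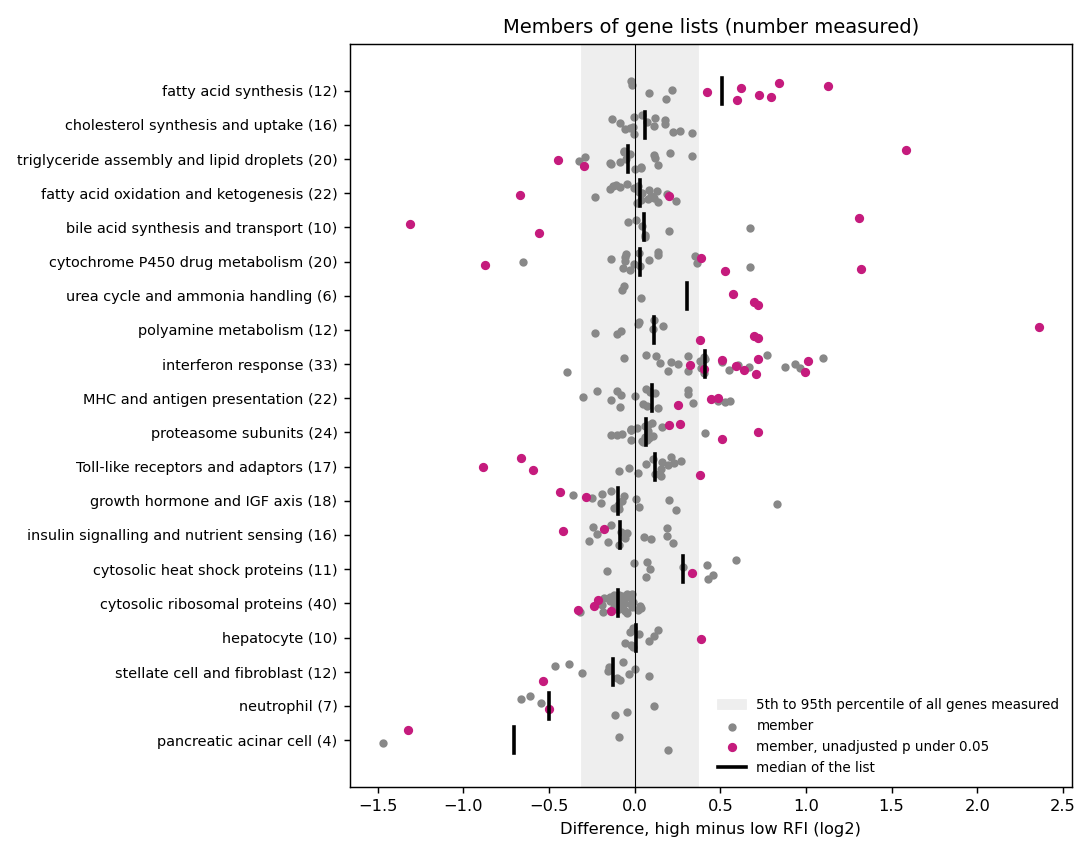
Differences between high and low RFI pigs (horizontal axis, log2) for the measured genes of selected described lists, 1 point per gene, with the list median marked. Fatty acid synthesis (median 0.51) and the interferon response (0.41) lie to the right. Neutrophil (-0.50) and pancreatic acinar markers (-0.71) lie to the left, and most of the other lists shown lie near 0.

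Fatty acid synthesis genes were mostly higher in high RFI pigs. Of 12 measured, 10 lay above 0 with a median of 0.51, and 7 passed the unadjusted cut upward and 0 downward (58.3%, against 9.56% of all genes). None passed adjustment. FASN, fatty acid synthase, ranged from 6.20 to 7.85 in low RFI pigs (median 7.42) and from 7.31 to 8.23 in high RFI pigs (median 7.90), a difference of 0.62 ± 0.21 (SE, adjusted p = 0.304). ACSL3, which activates fatty acids, differed by 0.79 ± 0.28 and FADS1, the delta-5 desaturase, by 0.42 ± 0.16.

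The other enzymes of the path are given although they were chosen after their values were seen. ACACA, acetyl-CoA carboxylase, differed by 0.60 ± 0.23 (SE). SCD, the delta-9 desaturase, ranged from 4.34 to 7.68 in low RFI pigs and from 6.60 to 7.74 in high RFI pigs, and differed by 0.84 ± 0.34. With single pigs left out the SCD difference ranged from 0.54 to 1.01. ACSS2, which makes acetyl-CoA from acetate, differed by 0.73 ± 0.35. SREBF1 and MLXIPL, transcription factors that drive these genes, were the 2 members of the list below 0. They differed by -0.02 ± 0.14 and -0.01 ± 0.14, with 95% intervals of -0.31 to 0.27 and -0.31 to 0.28.

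The difference in fatty acid synthesis depended in part on 2 low RFI pigs. The mean of the 12 genes per pig, relative to the low RFI mean, was -0.53 in low RFI pig 7 and -0.45 in pig 8, while the highest low RFI pig was at 0.35. High RFI pigs ranged from 0.20 to 0.85, and 5 of 8 were above every low RFI pig. Without low RFI pigs 7 and 8 the list median was 0.28 with 11 of 12 genes above 0, and 1 gene passed the unadjusted cut, where 3.21% of all genes did so upward. Within scan day 1 the median was 0.62 and within day 2 it was 0.36.

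**Figure D4:**
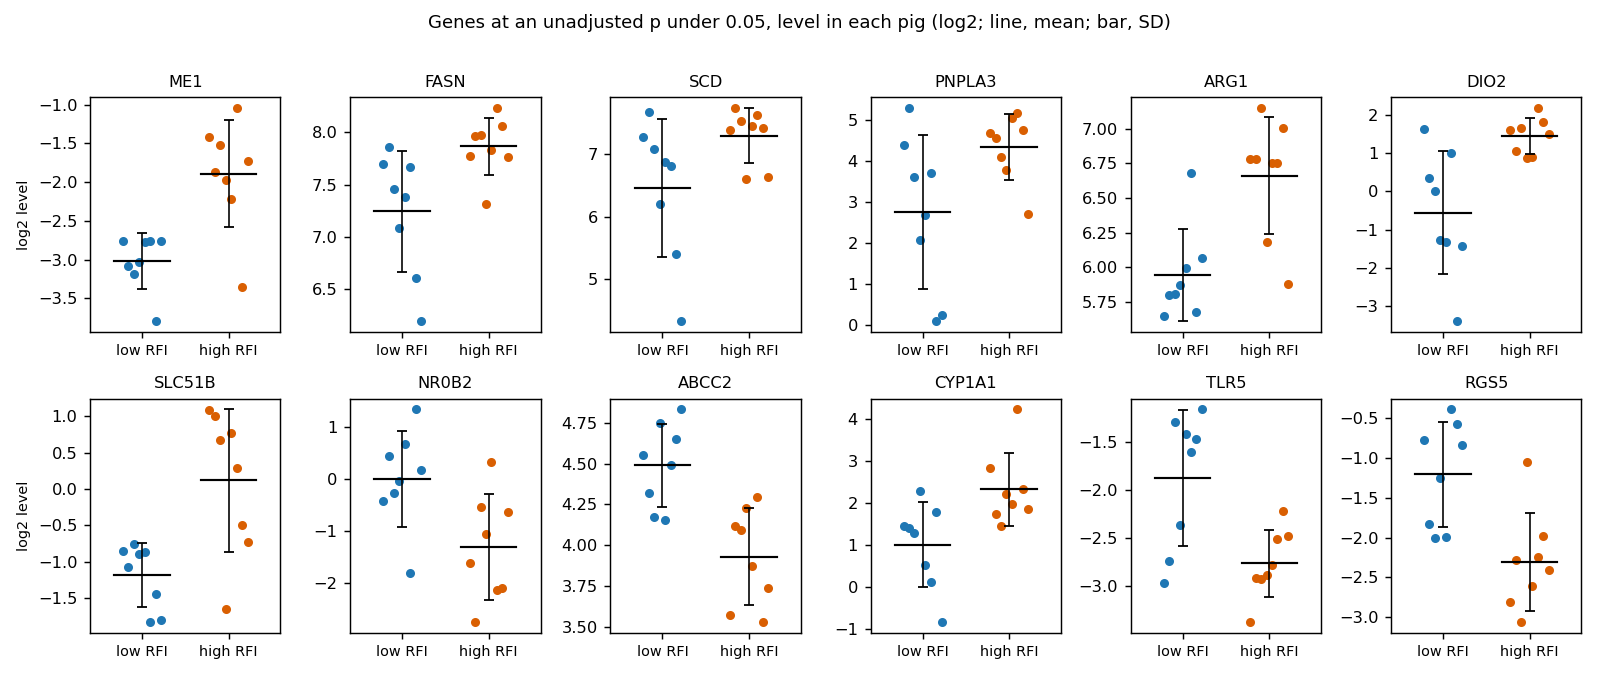
Levels of metabolic genes described in the text, and of TLR5 and RGS5 (vertical axis, log2 signal minus the 75th percentile of its array), in each low and high RFI pig. Points are pigs in order of pig number, the line is the mean and the bar the SD (n = 8 each); the groups overlap in every panel.

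Neighbouring lipid pathways showed no such shift. Of 20 triglyceride and lipid droplet genes, 1 passed the unadjusted cut upward and 2 downward, with a median of -0.04. PNPLA3, a lipid droplet lipase that feeding induces in liver, varied widely, from 0.11 to 5.30 in low RFI pigs and from 2.71 to 5.17 in high RFI pigs, and differed by 1.58 ± 0.69 (SE). AGPAT3 and FITM1, of phospholipid acylation and droplet formation, differed by -0.29 and -0.45. Of 16 genes of cholesterol synthesis and uptake none passed in either direction, and the median was 0.06. CYP51 and FDPS, of the sterol path, differed by 0.33 ± 0.20 and 0.22 ± 0.23.

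Fatty acid oxidation and ketogenesis had a median of 0.03 over 22 genes, with 1 gene past the unadjusted cut in each direction. CPT1A, the carnitine transferase that admits fatty acids to mitochondria, ranged from 3.0 to 4.77 in low RFI pigs and from 2.47 to 3.93 in high RFI pigs, where 1 spot marked as an outlier was left out. It differed by -0.67 ± 0.29 (SE, adjusted p = 0.456), and 5 other probes differed by -0.54 to -0.19. All 6 probes thus lay below 0. ACSL5, an acyl-CoA synthetase, differed by 0.20 ± 0.09.

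Bile acid genes lay on both sides of 0, around a median of 0.05 (10 genes, 1 higher and 2 lower at the unadjusted cut). SLC51B, a subunit of the transporter that exports bile acids to blood, ranged from -1.83 to -0.75 in low RFI pigs (median -0.98) and from -1.65 to 1.09 in high RFI pigs (median 0.48), a difference of 1.31 ± 0.37 (SE, adjusted p = 0.182). ABCC2, a pump of the canalicular membrane, ranged from 4.15 to 4.83 and from 3.53 to 4.30, a difference of -0.56 ± 0.17 (adjusted p = 0.233). NR0B2, the repressor SHP, differed by -1.31 ± 0.44 (adjusted p = 0.293) with a broad overlap, from -1.79 to 1.34 and from -2.74 to 0.32. CYP7A1, the rate-limiting enzyme of bile acid synthesis that SHP represses, differed by 0.67 ± 0.62. Its interval of -0.60 to 1.94 includes 0, and on scan day 2 alone it differed by -0.19.

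Of 20 cytochrome P450 and related genes, 3 were higher and 1 lower at the unadjusted cut, with a median of 0.03. CYP1A1, the classic target of the aryl hydrocarbon receptor, ranged from -0.83 to 2.29 in low RFI pigs (median 1.35) and from 1.46 to 4.22 in high RFI pigs (median 2.09), a difference of 1.32 ± 0.47 (SE, adjusted p = 0.332). AHR, the receptor itself, differed by 0.53 ± 0.18 (adjusted p = 0.312). The ranges overlapped in both. CYP2B22 differed by -0.87 ± 0.37, and the brightest CYP3A29 probe by 0.39 ± 0.18. Conjugating enzymes had a median of -0.03 over 14 genes with 2 higher. SULT1A3, a sulfotransferase, differed by 0.71 ± 0.24, and NNMT, nicotinamide N-methyltransferase, by 1.0 ± 0.45 on 1 probe and by -0.11 on another.

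Genes of nitrogen disposal included a few higher members. Among 6 genes of the urea cycle and ammonia handling, 3 passed the unadjusted cut upward, with a median of 0.30. ARG1, arginase, which releases urea, ranged from 5.64 to 6.68 in low RFI pigs (median 5.84) and from 5.88 to 7.15 in high RFI pigs (median 6.77), a difference of 0.72 ± 0.20 (SE, adjusted p = 0.177). GLUL, glutamine synthetase, differed by 0.57 ± 0.22 and ARG2, the mitochondrial arginase, by 0.70 ± 0.34. OTC, ornithine transcarbamylase, differed by -0.06 ± 0.08. When low RFI pigs 7 and 8 or high RFI pigs 5 and 7 were left out, 2 of the 6 genes passed.

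Arginase makes ornithine, from which polyamines are built. Of 12 genes of polyamine metabolism 4 passed the unadjusted cut (33.3%, against 9.56% of all genes), all higher: OAZ3, ARG1, ARG2 and AMD1. Of these only OAZ3 passed adjustment. AMD1, S-adenosylmethionine decarboxylase, differed by 0.38 ± 0.14 (SE), and by -0.10 under the alternative background correction. The median of the list was 0.11. Per pig the mean over the 12 genes ranged from -0.37 to 0.24 in low RFI pigs and from 0.22 to 0.46 in high RFI pigs, and 7 high RFI pigs were above every low RFI pig. OAZ3 itself is 1 of the 12, and its difference of 2.36 is the largest part of the list's mean difference of 0.35. The per-pig means therefore largely repeat the call for OAZ3, and ARG1 and ARG2 also count among the urea cycle genes.

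Other amino acid and carbohydrate genes were near the background. Of 26 genes of amino acid breakdown, 2 were higher and 1 lower, among them GLDC of glycine cleavage (0.40 ± 0.13, SE), the serine dehydratase-like SDSL (0.30 ± 0.14) and IVD of leucine breakdown (-0.39 ± 0.17). Of 11 gluconeogenesis genes 2 were higher. They were GOT1 and MDH1, cytosolic enzymes that carry oxaloacetate carbon and reducing equivalents, at 0.28 ± 0.13 and 0.23 ± 0.11. PC, pyruvate carboxylase, differed by -0.29 ± 0.15.

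Interferon response genes had a median of 0.41 over 33 genes, with 31 above 0 and 9 past the unadjusted cut upward and 0 downward. This difference depended on 2 animals. The mean over the list, relative to the low RFI mean, was 1.78 in high RFI pig 5 and 1.95 in high RFI pig 7, against a median of 0.02 over the high RFI pigs. Without pigs 5 and 7 the list median was 0.03, with 18 genes above 0 and 15 below, and 3 past the cut upward, where 4.29% of all genes were.

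For the members with the smallest p, differences are given with and without these pigs. PSMB10, a catalytic subunit of the immunoproteasome, ranged from 2.66 to 3.89 in low RFI pigs and from 3.21 to 4.01 in high RFI pigs, a difference of 0.51 ± 0.15 (SE, adjusted p = 0.194) that was 0.45 without them. PSMB9, another such subunit, ranged from 2.22 to 3.11 and from 2.71 to 4.36, a difference of 0.72 ± 0.22 that was 0.41 without them. The median of the high RFI pigs exceeded that of the low RFI pigs for both. The guanylate-binding protein GBP1 differed by 0.64 ± 0.22 (0.51 without them) and the chemokine CXCL9 by 0.99 ± 0.38 (0.62). OAS2, a sensor of double-stranded RNA named after its values were seen, differed by 1.01 ± 0.39 (0.53). None of these genes passed adjustment in limma in either set of pigs.

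**Figure D5:**
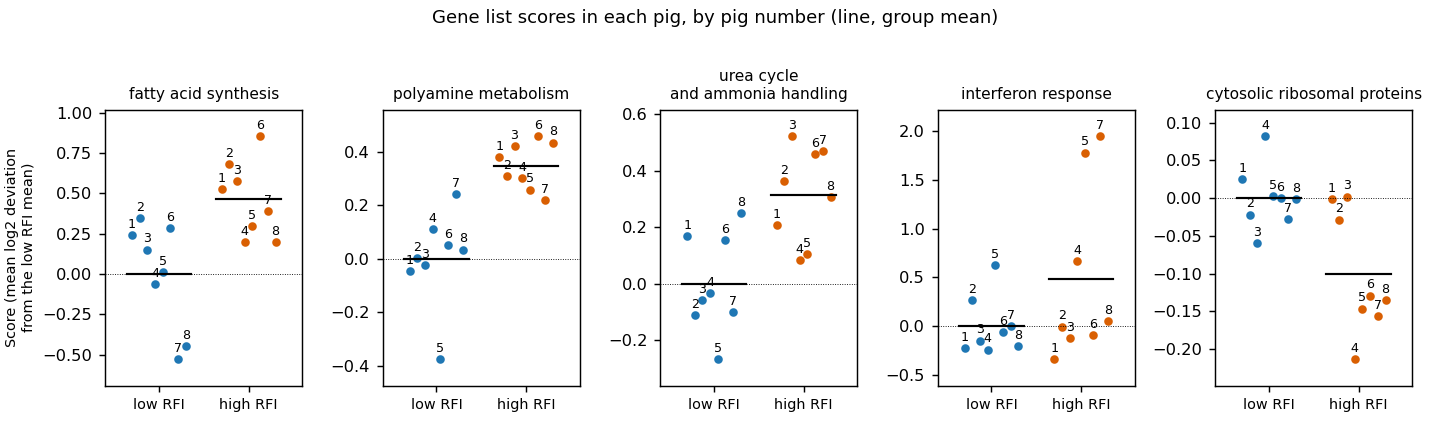
Mean over the genes of selected lists in each pig (vertical axis, log2, relative to the mean of the 8 low RFI pigs). Points are pigs labelled by pig number, and the line is the group mean (n = 8 each). High RFI pigs 5 and 7 stand at 1.78 and 1.95 for the interferon response, and low RFI pigs 7 and 8 at -0.53 and -0.45 for fatty acid synthesis.

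Of 22 genes of the major histocompatibility complex and antigen presentation, 16 lay above 0 with a median of 0.10, and 3 passed the unadjusted cut, among them the class I genes SLA-8 (0.49 ± 0.17, SE) and SLA-7 (0.45 ± 0.21) and the lysosomal thiol reductase IFI30 (0.25 ± 0.11). Class I genes are close copies of each other, so their probes may read several of them, and SLA-7 turned to -0.14 under the alternative background correction. Without high RFI pigs 5 and 7 the median of the 22 genes was 0.03, and 0 passed the cut in limma. Of 24 proteasome genes 4 passed upward with a median of 0.07. These were the immunoproteasome subunits PSMB9 and PSMB10 and the activator subunits PSME1 (0.20 ± 0.09) and PSME2 (0.27 ± 0.13), all interferon-inducible. Without high RFI pigs 5 and 7, 2 of the 24 passed, and PSME1 and PSME2 both differed by 0.08.

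Toll-like receptor genes included members lower in high RFI pigs. TLR5, the receptor for bacterial flagellin, ranged from -2.96 to -1.16 in low RFI pigs (median -1.54) and from -3.37 to -2.22 in high RFI pigs (median -2.83), a difference of -0.88 ± 0.23 (SE, adjusted p = 0.138). TLR2, the receptor for bacterial lipoproteins, differed by -0.59 ± 0.17 (adjusted p = 0.182). TRAF6, an adaptor downstream of these receptors, differed by -0.66 ± 0.26, while MYD88, the adaptor that binds them, differed by 0.38 ± 0.11 on a dim probe and by -0.057 under the alternative background correction. Over the 17 genes 3 were lower and 1 higher at the unadjusted cut, and the median was 0.12, which turned to -0.08 with 11 genes below 0 under the alternative background correction. Among 31 chemokines and receptors 3 were higher and 1 lower, with CXCR6 at 0.50 ± 0.16, CXCL2 at 0.78 ± 0.35 and CCL3L1 at -0.40 ± 0.16. The chemokine median of 0.09 turned to -0.08 on the second scan day and -0.02 under the alternative background correction. Without high RFI pigs 5 and 7, 1 chemokine gene was higher and 2 lower.

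The growth hormone and IGF axis held the called gene STAT5A. Growth hormone acts in liver through its receptor, the kinase JAK2 and the STAT5 proteins to raise IGF1. JAK2 ranged from -1.41 to -0.83 in low RFI pigs and from -1.63 to -1.32 in high RFI pigs, a difference of -0.28 ± 0.10 (SE, adjusted p = 0.316). Of the 18 genes 5 lay above 0 and 13 below, with a median of -0.10, and STAT5A and JAK2 were the 2 past the unadjusted cut, both lower. IGFBP1, an insulin-suppressed binding protein of IGF1, differed by 0.83 ± 0.43, and a further probe described as IGFBP1 but without a symbol here, chosen after its values were seen, differed by 2.46 ± 1.01 (adjusted p = 0.43). That probe ranged from -1.55 to 5.34 in low RFI pigs and from 1.39 to 7.39 in high RFI pigs.

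Insulin signalling and nutrient sensing had a median of -0.09 over 16 genes, with 2 lower and 0 higher at the unadjusted cut. Both were subunits of AMP-activated protein kinase, the cell's sensor of low energy. PRKAB1 ranged from -1.81 to -0.92 in low RFI pigs and from -2.20 to -1.48 in high RFI pigs, a difference of -0.42 ± 0.13 (SE, adjusted p = 0.255), and PRKAG1 differed by -0.18 ± 0.08. MTOR, the kinase of growth signalling, differed by -0.22 ± 0.13.

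DIO2, a selenoprotein that converts thyroxine to its active form, ranged from -3.38 to 1.62 in low RFI pigs (median -0.64) and from 0.87 to 2.17 in high RFI pigs (median 1.55). The high RFI pigs were tightly grouped and the low RFI pigs were not. The difference was 2.0 ± 0.57 (SE, adjusted p = 0.185), and DIO2 was the 1 of 19 selenoprotein genes past the unadjusted cut, with a list median of 0.03. THRA, a thyroid hormone receptor, differed by -0.17 ± 0.07, and SERPINA7, which binds thyroxine in plasma, by -0.25 ± 0.10. THRA and NR0B2 were the 2 genes past the cut among 27 liver transcription factors and nuclear receptors, both lower. SERPINA7, the angiopoietin-like ANGPTL6 (-0.30 ± 0.12) and the chemotactic factor LECT2 (-0.21 ± 0.09) were the 3 lower among 15 secreted metabolic factors, of which none were higher.

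Genes of protein synthesis lay slightly below 0. Of 40 cytosolic ribosomal proteins 37 were below 0, with a median of -0.10, and 4 passed the unadjusted cut downward. Besides RPL14 these included RPL5 (-0.24 ± 0.09, SE) and RPL11 (-0.14 ± 0.06). The mean over the list ranged from -0.06 to 0.08 in low RFI pigs and from -0.21 to 0.00 in high RFI pigs, so the groups overlapped. Under the alternative background correction the median was -0.0033, with 20 genes on each side of 0 and none past the cut. Translation factors had a median of -0.07 over 21 genes, and EIF3E, a subunit of an initiation factor, differed by -0.17 ± 0.06 with 13 further probes all below 0. Ribosomal proteins have many processed pseudogenes, so their probes may read copies.

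Chaperone genes past the unadjusted cut were few. Of 11 cytosolic heat shock genes 9 lay above 0 with a median of 0.28, and 1 passed the unadjusted cut. That was HSP90AA1, the inducible form of HSP90, which ranged from 5.62 to 6.41 in low RFI pigs and from 5.49 to 6.57 in high RFI pigs and differed by 0.33 ± 0.16 (SE, adjusted p = 0.506). HSPH1, a co-chaperone of HSP70, differed by 0.59 ± 0.34, with an interval of -0.12 to 1.29. The unfolded protein response of the endoplasmic reticulum had a median of 0.03 over 12 genes, and XBP1, its transcription factor, differed by -0.22 ± 0.09.

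Plasma proteins, the main secreted product of the liver, were near 0. Acute phase proteins had a median of -0.01 over 20 genes, with 2 higher and 1 lower. ITIH2, an inter-alpha-trypsin inhibitor chain, ranged from 8.18 to 8.86 in low RFI pigs and from 8.06 to 8.59 in high RFI pigs, a difference of -0.33 ± 0.10 (SE, adjusted p = 0.199), and ORM1, orosomucoid, differed by 0.26 ± 0.09. Coagulation genes had a median of -0.06 over 17, with thrombomodulin, THBD, at -0.41 ± 0.19. Apolipoproteins and lipoprotein genes had a median of -0.01 over 17, and the 2 past the cut were lower: LIPC, hepatic lipase (-0.27 ± 0.11), and LCAT, which esterifies cholesterol in plasma (-0.26 ± 0.11).

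Of 104 solute carriers 7 were higher and 4 lower at the unadjusted cut, close to the share in all genes, and the median was -0.01. Besides SLC2A4 they included SLC46A2 (0.66 ± 0.20, SE), SLC35F3 (-1.34 ± 0.41), which ranged from -4.70 to -1.47 in low RFI pigs and from -5.05 to -2.82 in high RFI pigs, and SLC24A2, a sodium, calcium and potassium exchanger (-0.60 ± 0.20). SLC51B is described above with the bile acid genes.

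Markers of cell types differed little for hepatocytes and lay below 0 for several other cells. In whole tissue, fewer cells of a type and less RNA per cell cannot be told apart. Hepatocyte markers had a median of 0.01 over 10 genes, and their mean ranged from -0.11 to 0.06 in low RFI pigs and from -0.06 to 0.19 in high RFI pigs. Of 10 endothelial markers 9 lay below 0 (median -0.16) and of 12 stellate and fibroblast markers 10 (median -0.13), with 0 and 1 past the unadjusted cut. The endothelial median was 0.02 on the first scan day, with 6 genes above 0, and -0.0080 without high RFI pigs 5 and 7, with 6 below 0. Among 13 collagens the median was -0.09, and COL14A1 (-0.47 ± 0.14, SE) and COL1A2 (-0.54 ± 0.21) passed. RGS5, a regulator of G protein signalling that marks pericytes, ranged from -2.01 to -0.39 in low RFI pigs and from -3.06 to -1.04 in high RFI pigs, a difference of -1.10 ± 0.30 (adjusted p = 0.161).

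Blood and immune markers varied between pigs. Of 7 neutrophil markers 6 lay below 0 with a median of -0.50, among them LTF, lactoferrin, at -0.50 ± 0.23 (SE). Their mean ranged from -0.56 to 1.03 in low RFI pigs and from -0.87 to 0.04 in high RFI pigs, so the groups overlapped. With single pigs left out the neutrophil median ranged from -0.59 to -0.25. Kupffer cell and macrophage markers had a median of 0.17 over 6 genes and T and NK cell markers 0.15 over 14, with 0 of either list past the unadjusted cut in limma. The T and NK cell median turned to -0.05 under the alternative background correction and to -0.0082 on the second scan day. Among them were the macrophage genes C1QA (0.26 ± 0.15), CD163 (0.22 ± 0.16), AIF1 (0.17 ± 0.15) and CD14 (-0.12 ± 0.07). The part of these cells in the values of SYK, UBD and the Toll-like receptors was not tested.

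Pancreatic acinar markers do not belong to liver. Of 19 listed, 7 had a named probe on the array and 4 passed the filter on low values, with a median of -0.71. CPA1, a pancreatic carboxypeptidase, ranged from -1.45 to 0.68 in low RFI pigs and from -3.48 to -0.69 in high RFI pigs and differed by -1.32 ± 0.46 (SE, adjusted p = 0.316). CELA2A, an elastase, differed by -1.47 ± 0.74, while AMY2 and CLPS differed by 0.19 ± 0.13 and -0.09 ± 0.15. Per pig the mean of the 4 ranged from -0.92 to 0.72 in low RFI pigs and from -1.49 to 0.08 in high RFI pigs. The groups overlapped, and the part of pancreatic RNA in other results was not tested.

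Genes that lie beside the called genes in the RefSeq order of Sscrofa11.1 were examined to show whether neighbours differed in the same direction. On each side of the 10 called genes only the nearest measured genes within 10 genes were taken, not all in that window. Of these 35, 3 were higher and 8 lower at the unadjusted cut, against 4.8% and 4.76% of all genes, with 0 past adjustment. STAT5B, which adjoins STAT5A, differed by -0.14 and did not pass the cut, STAT3, on its other side, differed by 0.09, and HSD17B1, which lies 5 genes away, by -0.43. AUH beside SYK and COQ2 beside HPSE differed by -0.41 and -0.35, opposite to their called neighbours, and TP53INP1, 5 genes from C4H8orf37, by 1.0, also opposite. RIIAD1, 3 genes from OAZ3, differed by -0.53, and TLR5, 7 genes from SMYD3, by -0.88, both opposite to the called gene.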

How the data were processed

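Per the labels' protocols, total liver RNA from each animal was linearly amplified and carried Cy3. Per the file headers, the deposited intensity values are Agilent Feature Extraction 10.7.3.1 processed signals (background-subtracted and detrended), with flags of another kind, deposited as 0 or 1, for spots above background and outliers. The authors also deposited a log2 table of 27564 features, used as an alternative, which equals log2 processed signal centred on a column median of 0. The submitters' processing notes name R 2.10.0.

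Control and outlier-flagged spots were left out, log2 processed signal was reduced by the 75th percentile of each array, and spots of a probe were averaged (43603 probes). Probes well above background on at least 6 of 8 arrays of either group were kept (29608). limma 3.58.1 in R 4.3.3 was fitted to 3 group means over all 24 arrays, with Benjamini-Hochberg adjustment over 29608 probes. Deposited files were parsed in Python 3.11.15. A single symbol, from Sscrofa11.1 RefSeq names, was found for 12257 probes. Genes were represented by the probe with the highest mean level.

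Named are every called gene, the 12 genes of smallest p per direction not called, up to 4 unnamed called probes per direction, members of described lists with the smallest p and the highest marker levels; exceptions are stated, and 2 genes that the rule names are not reported here. Members and lists were chosen with earlier results of these data known. Labels describe separate pigs, and p-values measure the spread between them. The fit was tested on simulated data.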

Additional observations from a re-analysis of the deposited data

Results flagged for a closer look

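Among 324 sets of 8 values examined, 19 held a pig far from the rest (a gap to the nearest pig, as a share of the group's range, above Dixon's 95% critical value), where chance gives about 1 in 20. Low RFI pig 7 stood apart for OAZ3 (0.23, next -2.01), ME1 (-3.79, next -3.18) and A_72_P008606 (-1.34, next -2.92). Low RFI pig 8 stood apart for FADS1 (4.64, next 5.43), COL14A1 (1.71, next 2.17) and OAS2 (2.90, next 4.73). Low RFI pig 5 had the lowest mean over coagulation genes (-0.24, next -0.05) and over polyamine genes (-0.37, next -0.05). Other low RFI pigs stood apart for P2RY1 (pig 1, -1.78, next -2.29), ARG1 (pig 6, 6.68, next 6.07) and HSP90AA1 (pig 4, 6.41, next 5.84).

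High RFI pig 7 stood apart for CYP3A29 (5.52, next 6.08) and YIPF5 (2.50, next 2.68), pig 3 for A_72_P427894 (-4.26, next -7.08) and A_72_P341528 (2.39, next 1.61), and pig 8 for MTDH (3.02, next 3.23) and FITM1 (0.23, next -0.73). High RFI pig 4 stood apart for TRAF6 (1.75, next 1.27) and pig 1 for the brighter APCS probe (6.70, next 6.14).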

How the results depend on the processing

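The 45 called probes became 5 with normexp background correction, 27 without the filter on dim probes, 5 and 11 within scan days 1 and 2 alone (fewer pigs), 89 with array weights and 28 without slide 3, and 27 to 48 with single pigs left out, the lowest without high RFI pigs 3 (27) and 2 (28). They numbered 34 to 48 under the other settings (quantile or median scaling, the authors' table, all 16 arrays above background, outlier spots kept, 16 arrays in the fit, slide or scan day as a block, high RFI pigs 5 and 7 or low RFI pigs 7 and 8 out); the last 2 and slide 3 were chosen after seeing the data. With pig number as a replicate block 48 were called, 34 of them among the 45. Same-numbered pigs correlated at -0.19 to 0.32, over 0.1 only for pig 5, so the numbers were not taken as pairs. All 45 kept their direction where tested except under normexp, where 43 did. Medians of 19 of the 39 gene lists changed sign in at least 1 of 9 settings, among them Toll-like receptors (-0.08 under normexp), chemokines (-0.02 under normexp, -0.08 on day 2), T and NK cells (-0.05 under normexp, -0.0082 on day 2) and endothelial cells (0.02 on day 1). Directions of named genes turned under normexp for HPSE (-0.063), SYK (-0.032), AMD1 (-0.10), SLA-7 (-0.14) and MYD88 (-0.057), and on scan day 2 for CYP7A1 (-0.19). MLXIPL turned to 0.051 under normexp, 0.14 on day 2, 0.0033 with array weights, 0.040 without high RFI pigs 5 and 7, 0.053 without low RFI pigs 7 and 8 and 0.033 without slide 3, and ranged from -0.076 to 0.039 with single pigs left out. SREBF1 turned to 0.043 under normexp, 0.14 on day 1, 0.0073 without high RFI pigs 5 and 7 and 0.016 without low RFI pigs 7 and 8, and ranged from -0.098 to 0.030 with single pigs left out. The difference in median SD between high and low RFI pigs was -0.076 under normexp, 0.022 on day 2 and -0.040 without high RFI pigs 5 and 7, and -0.031 to 0.013 with single pigs left out. The fatty acid synthesis median stayed between 0.38 and 0.56, the interferon median between 0.31 and 0.54, and the difference in spots above background between 1.77 and 3.05 percentage points with single pigs left out. The cause of these shifts was not tested. Dim probes near background (HPSE, SYK, MYD88, SLA-7, AMD1, and ZAR1L in high RFI pigs) carry the least certain values.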

Other observations

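Some transcripts were present at 2 distinct levels across the 16 pigs. Chosen after the data were seen, 20 of 29437 probes had a gap of at least 3 on the log2 scale between neighbouring pigs, with 2 or more pigs on each side, and 0 of the 20 were called. The widest gaps belonged to 3 probes described as glutathione S-transferases, enzymes that join glutathione to reactive compounds. Capitals mark the 46 bases that 2 of them share.
A_72_P497485: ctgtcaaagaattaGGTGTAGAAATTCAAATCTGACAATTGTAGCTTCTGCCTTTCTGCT
A_72_P517950: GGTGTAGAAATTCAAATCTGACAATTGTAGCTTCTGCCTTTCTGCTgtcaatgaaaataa
A_72_P302044: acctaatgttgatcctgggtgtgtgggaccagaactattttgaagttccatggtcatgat

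On all 3 probes the same 6 pigs were low: low RFI pig 3 and high RFI pigs 1, 3, 4, 5 and 7. For A_72_P302044, described as the A3-3 form, they lay between -6.95 and -1.99 and the other 10 pigs between 5.82 and 6.70, a gap of 7.81. The gaps were 7.98 for A_72_P497485 and 7.48 for A_72_P517950. Since 1 low RFI pig and 5 high RFI pigs were low, the group difference for A_72_P302044 was -5.94 (limma adjusted p = 0.416). The probes named GSTA1 differed by -0.04 and, for 1 that the array describes as alpha 2, by -0.05, and that for GSTA2 by 0.14, and their levels in all pigs lay between 6.13 and 8.11.

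For PON3, a paraoxonase bound to high-density lipoprotein, 4 low RFI and 3 high RFI pigs lay between 0.76 and 1.45 and the others between 4.64 and 5.76. A_72_P182911 was at -7.50 to -7.12 in low RFI pigs 2, 3, 7 and 8 and at -0.13 to 0.95 in all other pigs (difference 4.32, adjusted p = 0.135). A_72_P066171 was at 2.14 to 3.94 in low RFI pigs 3, 4, 6, 7 and 8 and in the lower set in all high RFI pigs (difference -4.07, adjusted p = 0.182). In such transcripts the group mean describes how many pigs of a group were at each level.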
